A study of Mus musculus with 16 samples.

Results

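The genes described here are 9 genes of fatty acid uptake, mitochondrial β-oxidation and its control in the colon. They were chosen by name, as Slc16a1, Acads, Acadm, Cpt1a, Acadvl, Hadha, Ppara, Pdk4 and Angptl4, and make up 9 of the 36711 genes that passed the filter on dim probes. None of the enzymes of ketogenesis proper is among the 9, and ketone body metabolism is described as a list with the other genes of the pathway. Colon RNA of 16 RjOrl:SWISS pups, an outbred stock, was taken at weaning and hybridised on 1-colour Agilent arrays with 1 array per pup. The C-section delivery (CSD) group had 8 pups (4 females and 4 males), taken from their mothers by hysterectomy shortly before term and raised by foster mothers that had given birth vaginally. The vaginal delivery (VD) group had 8 pups (2 females and 6 males) from litters that had been exchanged between vaginally delivering mothers, so pups of both groups were raised by another mother. All were housed under specific pathogen-free conditions, and no engineered allele or drug treatment was named for either group. Each group came from 2 biological mothers. The CSD litters were those of mothers 3 and 4, with 2 females and 2 males each, and the VD litters those of mother 5 (2 females and 3 males) and mother 6 (3 males). Delivery mode therefore varied only between litters. It cannot be told apart from alleles of the outbred stock that can differ between the mothers. A value below is a log2 intensity after background correction and quantile normalization, and a difference is a log2 fold change. A gene is called where its Benjamini-Hochberg adjusted p from limma, over all genes tested, lay under 0.05.

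Butyrate, made by bacteria from fibre, is the main fuel of colonocytes. It enters the cell through the monocarboxylate transporter Slc16a1, is activated to its coenzyme A ester and is oxidised in the mitochondrion by the short-chain enzymes of the β-oxidation cycle, while longer fatty acids need the carnitine gate at Cpt1a. The resulting acetyl-CoA is burnt in the citric acid cycle or turned into ketone bodies. Ppara is the nuclear receptor that senses fatty acids and drives many of these genes, and Pdk4 and Angptl4 are among its best known targets.

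PPARα binds DNA as a dimer with RXR at repeats of the half-site AGGTCA, so the promoters of the genes were searched for it. RefSeq promoters (GRCm38.p6, 250 bases before to 50 bases after the start) were matched for 8 of the 9 genes. No promoter was matched for Angptl4, so the counts leave out this PPARα target. The letters AGGTCA, on either strand, occurred in 3 of these 8 promoters, against 16.3% of all 32851 promoters of this length. The repeat AGGTCANAGGTCA occurred in 0 of the 8 and in 0.0396% of all promoters. The stretches around the 3 matches are shown because they belong to 3 of the enzymes, with the half-site in capitals (TGACCT where it lies on the other strand), at chr3:153944857-153944893 (minus strand) for Acadm, chr11:70015480-70015545 (minus strand) for Acadvl and chr19:3323177-3323242 (plus strand) for Cpt1a.
Acadm: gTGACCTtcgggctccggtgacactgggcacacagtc
Acadvl: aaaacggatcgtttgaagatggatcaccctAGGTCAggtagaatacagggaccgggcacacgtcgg
Cpt1a: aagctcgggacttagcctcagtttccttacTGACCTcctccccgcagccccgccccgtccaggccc
A match is a description of these letters and not a binding site.

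The 9 genes were measured by 10 probes, with 1 probe per gene and 2 for Ppara, and each probe lay well above background on all 16 arrays. The 2 probes of Ppara had a correlation of 0.976 over the 16 pups. The tissue was checked against marker genes of the colon. All 14 colonocyte markers and all 8 goblet cell markers were well above background on each array. Of the 8 measured markers of the small intestine, Lyz1, Rbp2, Fabp6 and Slc10a2 were also well above background on all 16 arrays, Apob was on 13, Alpi on 7, and Lct and Apoa4 on 0, so this list did not set the tissue apart as a whole.

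Between CSD and VD pups 0 of the 9 genes were called, against 1.25% of all genes tested (460 of 36711), and 0 had an unadjusted p under 0.05, against 14.5%. The difference was above 0 in 7 of the 9, against 51.7% of all genes, and its median was 0.06, against 0.0029 over all genes. All values of CSD pups lay apart from those of VD pups in 0 of the 9 genes, against 0.493% of all genes. The 95% intervals of the differences, from the limma fit, were narrow for Acadvl (-0.09 to 0.08) and wide for Angptl4 (-0.07 to 1.38). With 4 litters in all, limma estimated a litter correlation of 0.015, and with the correlation set at 0.1 the number of genes called fell from 460 to 84, and the standard error of Angptl4 rose from 0.34 to 0.39. The background shares and the intervals have to be read with that dependence, since the intervals are too narrow where the correlation is estimated too low.

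**Figure D1:**
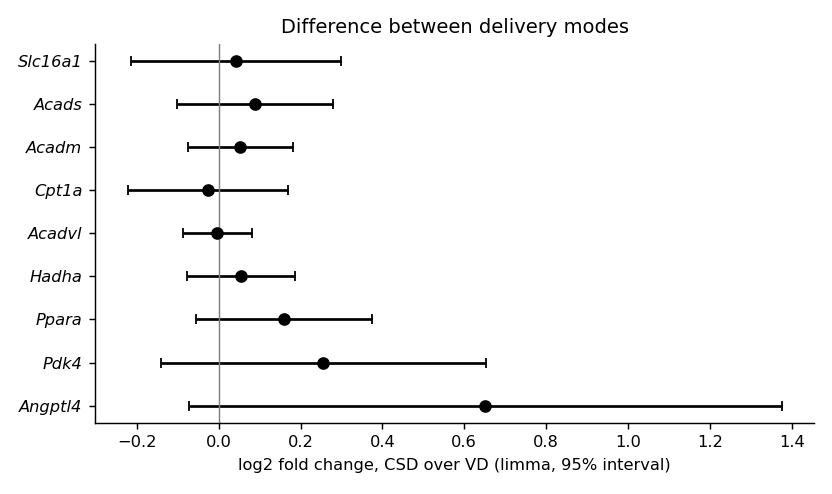
Log2 fold change of CSD over VD pups (x axis) for the 9 genes (y axis), with points for the limma estimate and bars for its 95% confidence interval. Every interval includes 0, the widest being that of Angptl4 (-0.07 to 1.38).

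Slc16a1, the transporter that carries butyrate into the colonocyte, lay between 12.90 and 13.61 in CSD pups (median 13.45) and between 13.08 and 13.60 in VD pups (median 13.16). The groups overlapped, with 1 CSD pup above and 3 CSD pups below every VD pup. The difference was 0.04 (standard error 0.12, adjusted p = 0.913 from limma). The 2 CSD litters had different means (13.54 for mother 3 and 13.09 for mother 4), although their values overlapped. The 4 pups of mother 3 were at 13.60, 13.61, 13.52 and 13.43, and those of mother 4 at 12.98, 13.46, 13.02 and 12.90. Only CSD pup 2 of mother 4, at 13.46, reached into the range of the litter of mother 3. The litter of mother 4 was lower by a log2 difference of -0.45 (standard error 0.12, unadjusted p = 0.0021), which did not pass adjustment (adjusted p = 0.254, limma). Between these litters 0 of the 9 genes were called, against 0.0872% of all genes.

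Acads encodes the short-chain acyl-CoA dehydrogenase, which takes butyryl-CoA as its substrate. Its values lay between 12.23 and 12.74 in CSD pups (median 12.43) and between 12.14 and 12.63 in VD pups (median 12.35). The difference was 0.09 (standard error 0.09, adjusted p = 0.717, limma). Acadm, the medium-chain dehydrogenase, lay between 13.70 and 14.04 in CSD pups (median 13.78) and between 13.65 and 13.92 in VD pups (median 13.77), a difference of 0.05 (standard error 0.06, adjusted p = 0.757, limma). In Acads and Acadm alike the groups overlapped, with 2 CSD pups above every VD pup in each.

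The long-chain side of the pathway was as close. Acadvl, the very-long-chain dehydrogenase of the inner mitochondrial membrane, had the smallest spread of the 9 genes, with a range of 0.21 over the 16 pups, and 9.62% of the 20548 genes well above background on every array had a smaller SD. It lay between 13.81 and 14.01 in CSD pups and between 13.80 and 14.01 in VD pups, with a difference of -0.0036 (standard error 0.04, adjusted p = 0.980, limma). Hadha, the α-subunit of the mitochondrial trifunctional protein, lay between 9.87 and 10.24 in CSD pups (median 10.05) and between 9.81 and 10.12 in VD pups (median 9.96). Its difference was 0.06 (standard error 0.06, adjusted p = 0.751, limma).

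Cpt1a, the carnitine acyltransferase of the outer membrane that sets the entry of long-chain fatty acids, lay between 12.38 and 13.08 in CSD pups (median 12.90) and between 12.67 and 13.09 in VD pups (median 12.89). The difference was -0.03 (standard error 0.09, adjusted p = 0.930, limma), although 3 CSD pups lay below every VD pup. These were the CSD females 1 (12.38), 3 (12.52) and 5 (12.66), while the 4 CSD males lay between 12.91 and 13.08. The remaining CSD female, pup 2, was at 12.89, close to the males.

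Ppara lay between 9.40 and 10.12 in CSD pups (median 9.69) and between 9.16 and 9.80 in VD pups (median 9.54). The difference of 0.16 (standard error 0.10, adjusted p = 0.513, limma) was within the spread between pups, and an exact two-sided permutation test over all 12870 assignments of 8 pups out of 16, which leaves litter and sex aside, gave p = 0.0786 for the unadjusted difference of means of 0.24. The 3 CSD pups above every VD pup were the females 1 (9.93), 3 (10.12) and 5 (10.08). Leaving out the litter of mother 6 brought the difference to 0.31 (adjusted p = 0.018, limma), past the threshold. That fit called 2265 genes in all, against 460 in the main fit. Leaving out the litter of mother 5 turned the difference of Ppara to -0.18 (adjusted p = 0.475, limma). Its adjusted p lay between 0.018 and 0.976 over the alternatives tried.

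Pdk4, the kinase that shuts off pyruvate dehydrogenase when fatty acids are burnt, lay between 8.09 and 9.07 in CSD pups (median 8.36) and between 8.02 and 8.94 in VD pups (median 8.17). Its difference was 0.26 (standard error 0.19, adjusted p = 0.582, limma). Angptl4, a secreted inhibitor of lipoprotein lipase, had the widest spread of the 9 genes, with a 4.57-fold range, and 98.8% of the genes well above background had a smaller SD. In the litter of mother 3 it was at 9.68, 11.25, 10.25 and 10.50, and in that of mother 4 at 9.45, 10.38, 11.31 and 11.62. The 5 VD pups of mother 5 lay close together, between 9.67 and 10.02, and those of mother 6 were at 11.64, 9.55 and 9.78. CSD pups 5, 6 and 7 and VD pup 6 were thus the high pups, from 11.25 to 11.64, and the other 12 pups lay at or below 10.50. The difference between the groups was 0.65 (standard error 0.34, adjusted p = 0.408, limma), and the groups overlapped. The exact two-sided permutation test, on the difference of means of 0.52 without sex, gave p = 0.17.

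**Figure D2:**
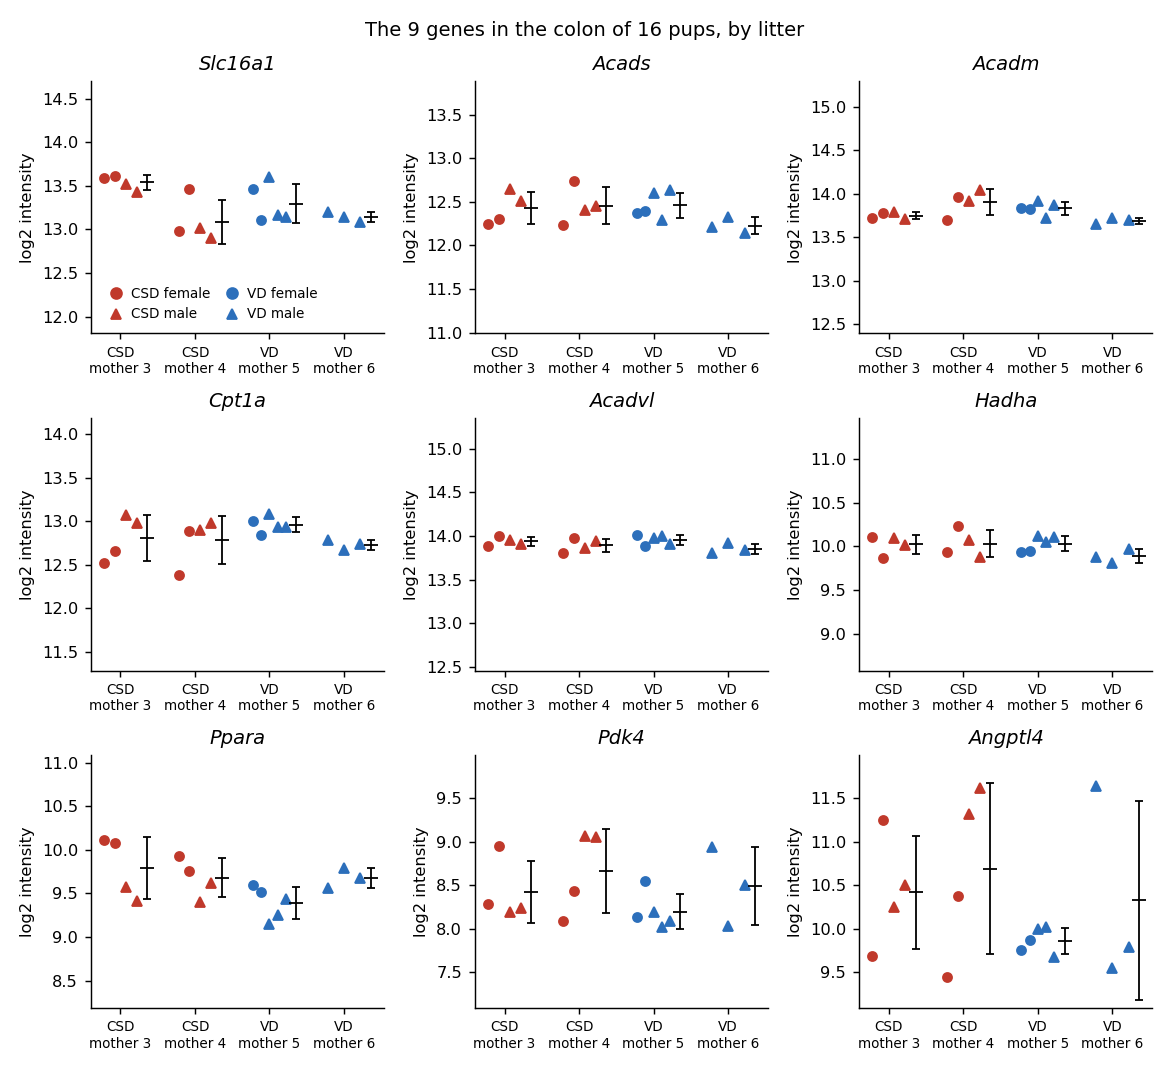
Log2 intensity (y axis, the same span of units in each panel) of the 9 genes in 16 pups, by litter (x axis), with circles for females, triangles for males, red for CSD and blue for VD, and a black bar for the litter mean with its SD (n = 4, 4, 5 and 3). Acadvl hardly varied, whereas Angptl4 reached 11.25 to 11.64 in 4 pups from 3 litters and lay at or below 10.50 in the others.

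The same 4 pups were the highest in Pdk4, with 8.95 in CSD pup 5, 9.07 in CSD pup 6, 9.06 in CSD pup 7 and 8.94 in VD pup 6, against at most 8.55 in the other 12. Because the pups fall into separate clusters, no correlation over all 16 is given. Among the 12 pups below the gap Pearson's r of Pdk4 and Angptl4, centred within delivery mode, was 0.278.

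Angptl4 and Pdk4 are strongly expressed in fat, and the colon wall can carry mesenteric fat, so the adipocyte markers were set beside them. All 8 markers on the list were well above background on every array, and the brightest was Cfd. Their mean log2 intensity was 9.69 in CSD pup 5, 9.95 in CSD pup 6, 10.49 in CSD pup 7 and 10.73 in VD pup 6. In the other CSD pups it was 7.83 (pup 1), 9.43 (pup 2), 8.41 (pup 3), 8.86 (pup 8) and 9.14 (pup 9). In the other VD pups it was 9.52 (pup 4), 10.12 (pup 5), 9.53 (pup 7), 8.85 (pup 8), 9.11 (pup 9), 9.30 (pup 10) and 9.25 (pup 11). The 4 pups high in Angptl4 and Pdk4 were therefore among the 5 highest in these markers, and VD pup 5 was high in the markers with Angptl4 at 9.87. Adipoq, the adipokine adiponectin, ranged from 6.56 to 11.62 over the pups, and Lep, the adipokine leptin, only from 7.85 to 8.12. Of the 8 markers, 1 was higher and 7 were lower in CSD pups, and 0 were called.

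With the mean of these markers as a covariate, an alternative chosen after the values were seen, the difference of Angptl4 between CSD and VD pups was 0.86 (standard error 0.16, adjusted p = 0.0231, limma), past the threshold. With the litter correlation also set at 0.1 it was 0.86 (standard error 0.19) with an adjusted p of 0.0728, and the call was lost. The adjusted p of Angptl4 lay between 0.0231 and 0.732 over the alternatives tried. The corresponding difference of Pdk4 with the covariate was 0.36 (standard error 0.12, adjusted p = 0.162, limma). In bulk tissue, fewer cells of a type and less RNA per cell cannot be told apart.

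**Figure D3:**
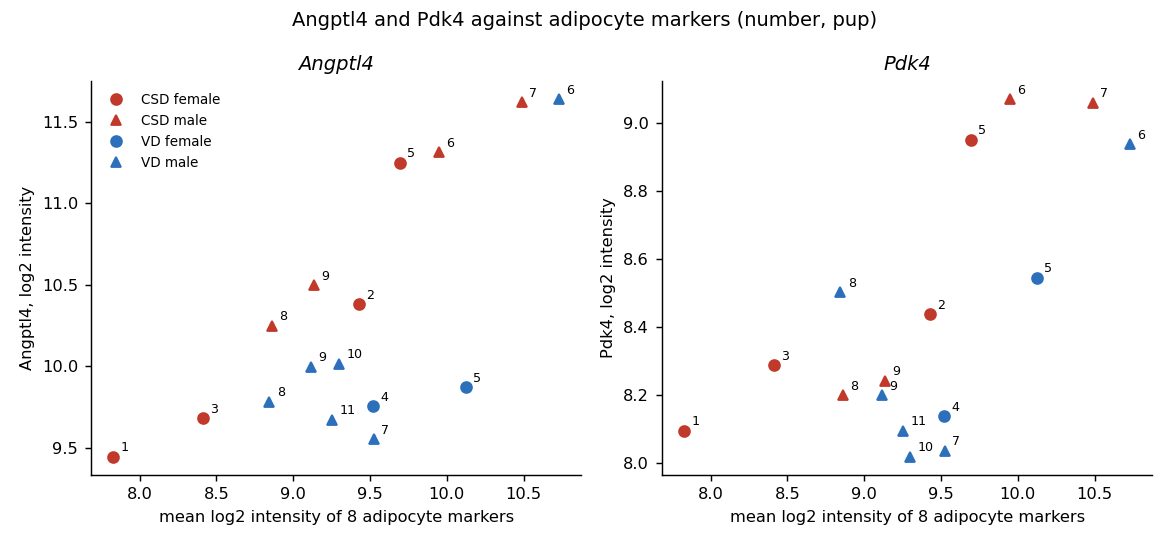
Log2 intensity of Angptl4 (left) and Pdk4 (right) on the y axis against the mean log2 intensity of 8 adipocyte markers on the x axis, 1 point per pup with its number, circles for females, triangles for males, red for CSD and blue for VD. CSD pups 5, 6 and 7 and VD pup 6 lie at the top right of both panels, and VD pup 5 is high in the markers with Angptl4 at 9.87.

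Of the 9 genes, Ppara had the smallest p between the sexes, while the largest difference was that of Angptl4, at -0.54 in females against males (standard error 0.34, adjusted p = 0.840, limma). In the model of delivery mode and sex, females were higher in Ppara by 0.31 (standard error 0.10, unadjusted p = 0.0089), which did not pass adjustment over all genes (adjusted p = 0.665, limma). Of the 9 genes 0 were called between the sexes, against 0.0599% of all genes. Sex could also be compared within the 3 litters that held both sexes, a comparison added after the values were seen. In each of these litters every female lay above every male in Ppara, a pattern that 1.38% of all genes showed in either direction. In the litter of mother 3 the females were at 10.12 and 10.08 and the males at 9.57 and 9.41. In that of mother 4 the females were at 9.93 and 9.75 and the males at 9.40 and 9.62. In that of mother 5 the females were at 9.59 and 9.52 and the males at 9.16, 9.25 and 9.44. The mean difference over the 3 litters was 0.40, given as a description with no test.

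Cpt1a ran the other way, with females lower than males by -0.27 over the same 3 litters, and by -0.19 in the model (standard error 0.09, adjusted p = 0.787, limma). In the VD litter of mother 5, the females were at 13.01 and 12.85 and the males at 13.09, 12.94 and 12.94, so the sexes overlapped there. The delivery by sex interaction was -0.44 for Cpt1a (standard error 0.16, unadjusted p = 0.014, adjusted p = 0.981, limma) and 0.39 for Ppara (standard error 0.19, adjusted p = 0.981). The interaction was called in 0 of the 9 genes and in 0.00272% of all genes. With 2 VD females, both from 1 litter, it rests on few pups.

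The 2 VD litters also differed in Ppara. The 3 males of mother 6 lay between 9.56 and 9.80, and the 5 pups of mother 5 between 9.16 and 9.59, so the litters overlapped. The overlap came from the female of mother 5 at 9.59. The males of mother 5 lay between 9.16 and 9.44, below all males of mother 6. In a model with sex, the litter of mother 6 was higher by 0.45 (standard error 0.10, adjusted p = 0.0465, limma), and Ppara was the 1 gene of the 9 that was called, against 0.874% of all genes. The call did not hold under 4 of the 8 other ways of processing the arrays, with adjusted p between 0.0351 and 0.103. Cpt1a was lower in the litter of mother 6, at 12.67 to 12.78, than in all 5 pups of mother 5, at 12.85 to 13.09. The difference was -0.33 (standard error 0.11, adjusted p = 0.204, limma). Acadm was lower as well, at 13.65 to 13.72 against 13.72 to 13.92, by -0.16 (standard error 0.07, adjusted p = 0.369), with the highest pup of mother 6 just below the lowest of mother 5. The values of the 2 litters thus did not overlap in 2 of the 9 genes, against 8.12% of all genes. The litter of mother 6 held only males and that of mother 5 both sexes, so these counts mix sex with litter. In Acads, whose values overlapped, the difference was -0.28 (standard error 0.12, adjusted p = 0.352). Each pair of litters compares 2 mothers, so that the litter, the foster mother and the alleles of an outbred stock cannot be told apart.

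Across the pups Ppara and Cpt1a moved in opposite directions. On values centred within delivery mode, Pearson's r was -0.80 over 16 pups (permutation p within delivery mode 0.00072, adjusted over the 36 pairs of genes 0.013) and Spearman's rho was -0.84 (adjusted permutation p = 0.013). Without the 2 pups farthest from the median of Cpt1a, r was -0.80. With values centred within each litter it was -0.78. Acads went with Cpt1a, with r = 0.73 and rho = 0.72 (adjusted permutation p = 0.03 and 0.043) and r = 0.65 without the 2 farthest pups. The pups of a litter are not independent, and litter and sex moved with both genes as given above.

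**Figure D4:**
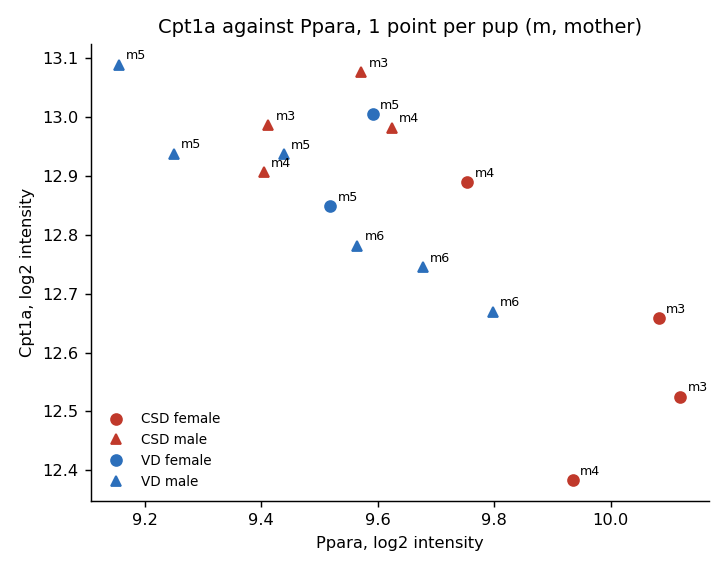
Log2 intensity of Cpt1a (y axis) against that of Ppara (x axis), 1 point per pup labelled with its mother (m), circles for females, triangles for males, red for CSD and blue for VD. The 3 pups with Ppara above 9.9 are CSD females and have the 3 lowest values of Cpt1a (12.38 to 12.66).

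The genes whose values went most closely with each of the 9 were taken from 20546 genes by Pearson's r over the 16 pups, centred within delivery mode, as a description, with the highest positive values listed. Correlations of -0.8 or lower also occurred, in 23 genes for Ppara, and outnumbered those of 0.8 or higher for Cpt1a (17 genes against 4) and Acadm (6 against 4). For Ppara the genes with the highest positive r were 0610005C13Rik (0.93), ENSMUST00000121346 (0.93) and Fahd1 (0.92). For Angptl4 they were Lrrc4c, Rgl1 and Cyp2e1, and for Pdk4 Cox8b, 5930403L14Rik and Sfrp5, in a choice that includes the 4 high pups. Among the 12 pups below the gap, r was 0.84, 0.81 and 0.77 for the genes of Angptl4 and 0.70, 0.59 and 0.67 for those of Pdk4. Those of Acads were Abhd6 (0.91), Abhd17b (0.90) and Mxd1 (0.86), and those of Hadha were Phf19 (0.93), Mettl26 (0.91) and Sp2 (0.91). Acadvl was closest to Sqstm1 (0.89), the autophagy receptor, 2410080I02Rik (0.85) and Ndufa1 (0.83), and Cpt1a to P2rx1 (0.86), Cntnap1 (0.82) and Stom (0.81). Slc16a1 was closest to Snph (0.86), AK038571 (0.86) and Mvb12a (0.86), and Acadm to Magi1 (0.82), BE686324 (0.81) and an unnamed intergenic transcript (0.81).

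The other genes of the pathway were 120 genes in 8 lists, of which 62 were higher and 58 lower in CSD pups. None of the 120 was called (lowest adjusted p 0.097, limma), and 21 (17.5%) had an unadjusted p under 0.05, against 14.5% of all genes. Their median difference was 0.006, against 0.0029 over all genes.

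Among 10 genes of butyrate uptake and sensing, 5 were higher and 5 lower. An unadjusted p under 0.05 was found in 3 of the 10, against 14.5% of all genes, and these 3 were lower in CSD pups. All 8 leukocyte markers were lower as well (median difference -0.31), and the part of this in the 3 genes was not tested. Ffar2, a receptor for short-chain fatty acids, had a mean of 10.21 ± 0.41 in CSD pups against 10.60 ± 0.35 in VD pups (SD, n = 8 each), a difference of -0.48 (adjusted p = 0.196, limma). Slc16a3, the monocarboxylate transporter known for exporting lactate, had a difference of -0.19 (adjusted p = 0.160). Slc5a8, the sodium-coupled transporter that also takes up butyrate, had means of 12.91 ± 0.18 and 12.72 ± 0.15 (SD, n = 8 each), a difference of 0.17 (adjusted p = 0.360). Among the 13 fatty acyl-CoA synthetases, 6 were higher and 7 lower, but Acsm1, Acsm2 and Acsm5 among the higher and Acsm4 among the lower were well above background on 0 arrays. In this list the smallest p was that of Acsm3 (0.20, adjusted p = 0.179), a medium-chain enzyme that also takes butyrate, before Acsl3 (0.40, adjusted p = 0.290), a long-chain enzyme.

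Of the 9 genes of the carnitine shuttle 3 were higher and 6 lower, with the smallest p in Mlycd (0.10, adjusted p = 0.284), which breaks down the Cpt1 inhibitor malonyl-CoA, and in Cpt1c (-0.10, adjusted p = 0.493). Of the 18 other genes of mitochondrial β-oxidation 13 were higher and 5 lower, with a median of 0.04, where 51.7% of all genes were higher. An unadjusted p under 0.05 was found in 4 of the 18, against 14.5% of all genes, each of them higher in CSD pups. These were Etfdh and Etfa, which pass electrons from the dehydrogenases to ubiquinone, Acad11, and Hadhb, the partner of Hadha in the trifunctional protein. Their differences lay between 0.10 and 0.15, and the adjusted p of Hadhb was 0.253. Of 14 colonocyte markers 13 were also higher in CSD pups (median difference 0.18), and the part of this in the list was not tested.

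Ketone body metabolism had 10 measured genes, 5 higher and 5 lower. Bdh1, which interconverts acetoacetate and β-hydroxybutyrate, had a difference of 0.0034 (adjusted p = 0.987). Aacs, which returns acetoacetate to lipid synthesis in the cytosol, had a difference of -0.56 (standard error 0.17, adjusted p = 0.112). Its means were 12.34 ± 0.23 in CSD pups and 12.89 ± 0.41 in VD pups (SD, n = 8 each). Oxct2a, a ketone-using transferase known from testis, came next (0.09, adjusted p = 0.368) but was well above background on 0 arrays.

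Around pyruvate dehydrogenase 4 of 12 genes were higher and 8 lower. The smallest p were those of Pdp2, a phosphatase that switches the complex on (-0.12, adjusted p = 0.273), and Pdhx, one of its structural subunits (0.10, adjusted p = 0.285), and Pdk2, a kinase of the same family as Pdk4, had a difference of -0.24 (adjusted p = 0.289). Of 20 nuclear receptors and coregulators 11 were higher and 9 lower, with the smallest p in the corepressor Ncor1 (0.10, adjusted p = 0.120). Of 30 measured other PPAR target genes 17 were higher and 13 lower, with Fgf21 and Fabp1 among the higher well above background on 0 arrays. Pex11a, a peroxisome division factor, came closest to the threshold with means of 12.25 ± 0.11 in CSD pups and 11.99 ± 0.15 in VD pups (SD, n = 8 each), a difference of 0.24 (adjusted p = 0.097). Fabp2, the intestinal fatty acid binding protein, had the largest difference in the list, at 0.63 (standard error 0.24, adjusted p = 0.207).

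**Figure D5:**
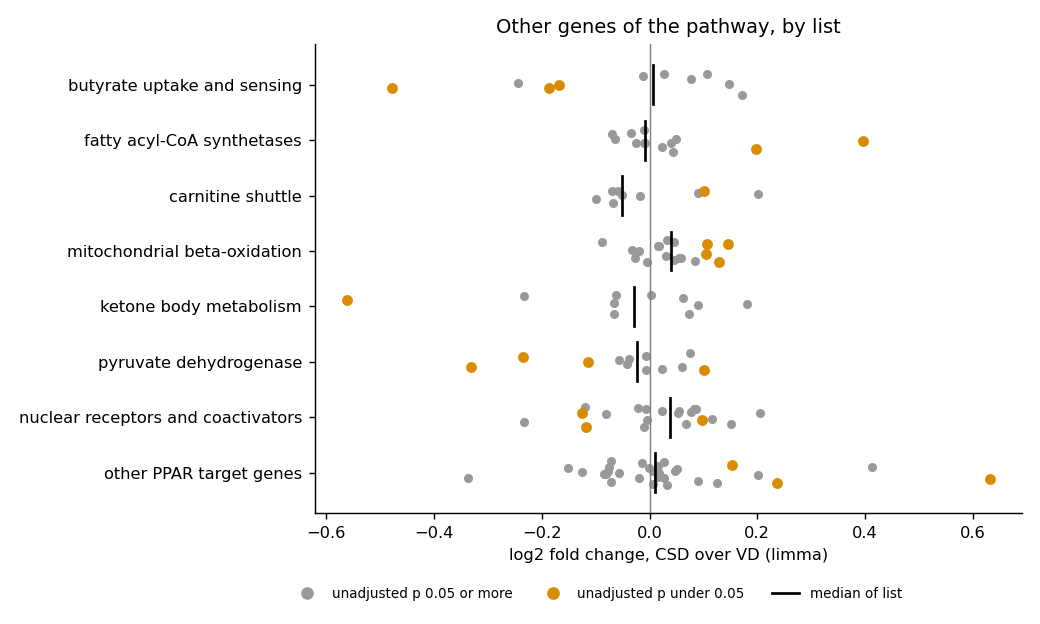
Log2 fold change of CSD over VD pups (x axis) for the genes of 8 lists (y axis, with random vertical scatter), grey where the unadjusted p from limma was 0.05 or more and orange where it was lower, with a black line at each list's median. The orange points number 21 of 120 genes, and 0 were called after adjustment.

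Markers of the cell types in the tissue were counted by the sign of their difference, which was above 0 in 51.7% of all genes, and 0 of them were called. Of 14 colonocyte markers 13 were higher in CSD pups (median difference 0.18), as were 7 of 8 goblet cell markers (0.19). All 8 leukocyte markers (-0.31), all 6 endothelial markers (-0.16) and all 6 erythroid markers (-0.42) were lower in CSD pups, as were 7 of 8 smooth muscle markers (-0.13). The brightest colonocyte marker, Lypd8 (-0.11), and the brightest goblet cell marker, Zg16 (-0.03), were the 1 marker of each list with a difference below 0. The brightest of the other lists were Jchain (-0.95), Plvap (-0.27), Hba-a2 (-0.44) and Tagln (-0.13). Small intestinal, skeletal muscle and fibroblast markers were higher in 3 of 8, 1 of 8 and 1 of 6, and markers of enteric neurons and glia in 5 of 8. Their brightest genes, Lyz1 (-0.34), Acta1 (-0.23), Dcn (-0.18) and Uchl1 (-0.22), had differences below 0. The part of these differences in the values of the 9 genes and of the pathway lists was not tested.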

How the data were processed

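Colon RNA of 16 pups was measured with Cy3 on Agilent arrays. The authors deposited the scanner output (Feature Extraction 12.0.3.2) with spot intensity, local background and detection marks, and a gene matrix of log2 values normalized with limma (version 3.38 per the submitters' processing notes), used here as an alternative. Mean intensity was background-corrected (normexp, offset 50) and, without control and outlier spots, taken to log2 and quantile normalized. Probes above the 5% quantile of their array on at least 4 arrays were kept (56366 of 56605) and averaged by gene with limma 3.58.1 in R 4.3.3. Between 58.7% and 64.9% of spots per array lay well above background, and the number of arrays and litters limits the precision.

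Delivery mode and sex were fixed effects and the biological mother a random effect (duplicateCorrelation). Litters within a delivery mode were compared in a model with sex and no random effect. The 9 genes and all gene lists were chosen with earlier results of these data known. The text names all 9 genes, the 2 genes of each pathway list with the smallest p (1 of them is not reported here), the brightest gene of each marker list and the 3 genes most like each of the 9. Slc5a8, Bdh1, Pdk2, Hadhb, Etfa, Adipoq, Lep, genes named as not above background and the markers of the small intestine other than Lyz1 were named after their values were seen. The fit was also tested on simulated data that kept the litter structure. With 4 litters, the estimated litter correlation came out below the simulated one and unadjusted p-values of the delivery comparison were too small, so the number of calls there can be too high. Alternatives covered background correction, normalization, filters, probe averaging, model terms, slides, and leaving out pups or litters.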

Additional observations from a re-analysis of the deposited data

Results flagged for a closer look

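Among the 9 genes in each of the 2 delivery groups, 18 groups of 8 pups were examined for a pup far from the rest, and 1 was found, where chance gives about 1 in 20. In the VD pups, Angptl4 was at 11.64 in VD pup 6 and next at 10.02, a gap of 0.778 of the group's whole range. The same pup had the highest mean of the adipocyte markers of all 16 pups (10.73).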

How the results depend on the processing

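The 460 genes called between CSD and VD pups depended on the processing. The number was 102 with a normexp offset of 0, 243 with an offset of 16, 177 and 164 with the scanner-corrected signal (quantile normalized, or minus the 75th percentile), 170 with the deposited gene matrix, 992 without sex, 1126 at an adjusted p under 0.1, 11 on slide 1 alone, and 0 on slide 2 alone, in males only and with litter means as samples. It was 212, 138, 189 and 2265 without the litters of mothers 3, 4, 5 and 6, and between 145 (without VD pup 4) and 617 (without VD pup 7) when 1 pup was left out. Alternatives with a litter correlation of 0.1 and with an adipocyte covariate were added after the data were seen. A litter correlation of 0.1 gave 84 calls, the adipocyte covariate 377, and both together 94. Of the 9 genes, 1 was called without the litter of mother 6 (Ppara, 0.31) and 1 with the adipocyte covariate (Angptl4, 0.86), and 0 in the other alternatives. The call of Ppara between the VD litters was lost, leaving 0 of 9, with offsets 0 (0.48) and 16 (0.47) and with the scanner-corrected signal (0.51 quantile normalized, 0.50 minus the 75th percentile). Differences near 0 changed sign. Leaving out 1 pup moved Acadvl between -0.018 and 0.015, Cpt1a between -0.063 and 0.039 and Slc16a1 between -0.016 and 0.11. Acadvl turned to 0.013 with the scanner-corrected signal, 0.038 minus the 75th percentile, 0.013 with litter means, 0.0084 in males, 0.015 on slide 2, 0.00056 at a litter correlation of 0.1, 0.0036 with the covariate as well, and 0.016 and 0.063 without the litters of mothers 4 and 5. Cpt1a turned to 0.0038 minus the 75th percentile, 0.13 in males, 0.0094 with covariate and litter correlation of 0.1, and 0.26 without the litter of mother 5. Slc16a1 turned to -0.0059 in males and -0.19 without the litter of mother 3. Without the litter of mother 4 Acadm was at -0.041, and without that of mother 6 Acadm was at -0.0013 and Acads at -0.0044. Ppara was at -0.18 without the litter of mother 5. For sex, Acadvl turned to -0.0042 minus the 75th percentile and Hadha to 0.0040 with the deposited matrix. Minus the 75th percentile, the interaction of Acadvl was 0.057, and the differences between CSD litters were -0.011 for Acads and -0.0038 for Hadha. The differences of Hadha, Pdk4 and Angptl4 between delivery modes stayed above 0 in the alternatives run but moved in size, between 0.0025 and 0.13, 0.065 and 0.43, and 0.42 and 0.86. The lowest were without the litter of mother 6 for Hadha and of mother 4 for the others, and leaving out 1 pup brought Hadha down to 0.032 and Acads to 0.053 (each without CSD pup 2), Acadm to 0.011 (without CSD pup 7) and Pdk4 to 0.16 (without CSD pup 6).

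The labels do not say whether the numbers in the pups' titles pair the samples. The 5 shared numbers gave correlations of deviations between -0.0492 and 0.215. Of 5 CSD pups, 2 correlated best with their own number. So few pups cannot decide whether the numbers pair animals. With the number as a replicate block, 0 genes and 0 of the 9 were called, with Cpt1a at 0.10, Acadvl at 0.051, Angptl4 at 0.81 and Ppara at 0.07.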
